A study of Mus musculus with 6 samples.

Results

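Immediate early genes are genes whose transcription rises soon after a stimulus without new protein synthesis. A set of 10 of them (*Fos*, *Fosb*, *Jun*, *Junb*, *Egr1*, *Ier2*, *Atf3*, *Dusp1*, *Klf4* and *Nr4a1*) was taken by symbol from the 55401 gene identifiers of an RNA-seq count table and read in each library singly. All 10 symbols matched 1 identifier each, and 9 of the 10 passed the filter on low counts. The libraries were made from whole mouse embryos at E10.5 (E for embryonic day), 3 of wild-type (WT) and 3 of 5C genotype, all on a C57BL/6J background. 5C embryos carry 5 extra copies of the microRNA gene *Mir483* in a tandem array, placed by gene targeting at the *Igf2* locus and passed on by chimeric males, and WT embryos were their littermates. The authors describe each library as made from a lysate of 2 pooled male embryos. Y-linked transcripts were low in WT replicate 2 and 5C replicate 2, as given below. The time from dissection to lysis is not given in the sources used here.

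Growth factors, stretch, wounding, warming and enzymatic or mechanical handling of tissue activate the MAP kinases and with them ternary complex factors at serum response factor, and cAMP and calcium signals act through CREB. These pathways switch on transcription factors (the AP-1 subunits, EGR, KLF and NR4A families) together with feedback inhibitors such as DUSP1, and most of the transcripts are short-lived, partly through AU-rich elements in their 3′ UTRs. The levels of these genes are widely used to judge how a tissue fared between the animal and the lysis buffer.

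The following sequences show AU-rich motifs found in the 3′ UTRs of some members, and the mature microRNAs that the edit raises. The motifs are matches of letters alone, and turnover of the messages was not measured. The mature strands of miR-483 are encoded on the minus strand of chromosome 7 of GRCm38.p6 (RefSeq), miR-483-3p at chr7:142654932-142654952 and miR-483-5p at chr7:142654968-142654989, with the seed (bases 2 to 8) in capitals.
miR-483-3p: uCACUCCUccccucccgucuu
miR-483-5p: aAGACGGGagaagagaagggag
In the 3′ UTRs, the AU-rich heptamer TATTTAT occurred in 5 of the 10 members, against 31% of 13897 tested coding genes, and the pentamer ATTTA in 9 of 10, against 70.6%. Both were searched on the transcript strand of the longest annotated coding transcript, and each heptamer holds a pentamer. *Dusp1* had 3 heptamers, *Fos* 2, and *Jun*, *Fosb* and *Atf3* 1 each. The heptamer is in capitals in the runs below, which lie at chr12:85477103-85477132 (plus strand), chr4:95049078-95049107 (minus), chr1:191170337-191170366 (minus), chr7:19303325-19303354 (minus) and chr17:26506158-26506187 (minus) of GRCm38, in the order printed.
*Fos*: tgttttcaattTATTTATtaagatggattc
*Jun*: ttgcttgtgcaTATTTATaatagcgttcgt
*Atf3*: aaaatattactTATTTATcccagtattcct
*Fosb*: ccacccccagcTATTTATccctttcctggt
*Dusp1*: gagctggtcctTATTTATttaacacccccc
*Ier2* was the only member without a pentamer. The complement of the miR-483-3p seed (AGGAGTG) lay in the 3′ UTR of 1 of the 10 members, *Egr1*, against 12.4% of tested coding genes, and that of the miR-483-5p seed (CCCGTCT) in 0 of 10, against 3.44%.

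Promoter windows from RefSeq (GRCm38.p6; 250 bases before to 50 after the start) were given for 8 of the 10 members, all but *Egr1* and *Ier2*. They were searched on both strands for the CArG box of serum response factor, the cAMP response element (CRE) TGACGTCA, the AP-1 element TGACTCA, the EGR element GCGTGGGCG and the ETS element CCGGAAG. The CRE was found in the window of *Dusp1* alone, 143 bases before its start, and in 1.79% of 32851 promoters. It is printed with the element in capitals, on the strand of the gene (minus) at chr17:26508597-26508626.
*Dusp1*: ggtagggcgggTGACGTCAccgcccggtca
The other motifs had no match in these 8 windows. Sites outside the windows, or with letters other than those given, were not searched. Over all promoters the CArG box was found in 1.63%, the AP-1 element in 5.2%, the EGR element in 0.612% and the ETS element in 8.86%.

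Totals ran from 6357343 to 19151368 counts per library, and 3 counts, the smallest level read as detected, were worth 0.157 to 0.479 CPM (read counts relative to library size, adjusted by the trimmed mean of M values, TMM). Floors and intervals on counts cover counting error only. All 10 markers of the embryo proper (among them *Sox2*, *Twist1* and *Pax6*) were tested, with sums of 5919 to 7365 CPM in WT and 5264 to 9781 CPM in 5C. The sum was mostly the embryonic globin *Hbb-y*, at 4764 to 9330 CPM. Markers of decidua and uterine natural killer cells, 7 of 10 tested, summed to 25.8 to 64.8 CPM in WT and 27.1 to 71.3 CPM in 5C, most of it *Prl8a2* and *Wnt4*. Of these 7, 6 were higher in 5C (median 1.63 on the log2 scale). *Gzmg* (2.24), *Gzmc* (2.03) and *Gzmf* (1.63) had an unadjusted p under 0.05 in edgeR's quasi-likelihood test, with an adjusted p of 0.781 each. Over all genes tested 6.02% had such a p. These 3 were low and overlapped between genotypes, with 5C replicate 2 within the WT range. *Gzmg* gave 0.315, 0.944 and 0.957 CPM in the WT pools and 2.42, 0.683 and 6.12 CPM in the 5C pools. Markers of macrophages, 8 of 8 tested, summed to 41.6 to 67.1 CPM and 44.1 to 55.8 CPM. At an unadjusted p under 0.05 in the same test, 2 of 10 embryo proper markers and 1 of 8 macrophage markers were higher in 5C. All 10 markers of yolk sac endoderm were lower in 5C (median -2.12 on the log2 scale), 2 of them at that p. Of 6 epithelial markers 1 was lower at that p, and of 6 endothelial markers 0 reached it. The edited gene followed the labels: *Mir483* held 11, 5 and 2 counts in WT and 85, 51 and 36 in 5C. WT replicate 1 stood apart, since 10 of 10 yolk sac endoderm markers were tested and their summed level was 6778 CPM there, against 285 and 564 CPM in the other WT libraries and 198 to 1354 CPM in 5C, the highest in 5C replicate 3, with none of the markers at 0 in all libraries. Y-linked transcripts summed to 4.12 CPM in WT replicate 2 and 0.0854 CPM in 5C replicate 2, against 130 to 212 CPM elsewhere, although the pools were described as male. Whether these differences bear on the members was not tested; member values without these libraries are given where they matter.

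Compared per kilobase of annotated exon, the members spanned a wide range of levels. *Ier2* and *Jun* were by far the most abundant, at 24.8 and 17.9 CPM per kb (mean of 6 libraries), which placed them above 85.3% and 78.3% of tested coding genes. The libraries of *Ier2*, 22.9 to 26.5 CPM per kb, all lay above those of *Jun*, 16.2 to 18.9 CPM per kb. Then came *Dusp1* at 2.61, *Atf3* at 2.24 and *Junb* at 2.15 CPM per kb. All 3 overlapped across libraries and could not be put in order on this length. *Dusp1* has 3311 annotated exon bases but 1990 in its longest coding transcript, so its place depends on the length used. *Nr4a1* followed at 1.02 CPM per kb and *Klf4* at 0.681 CPM per kb, with library ranges that did not overlap. *Fos*, at 0.493 CPM per kb, overlapped both *Klf4* and *Egr1*, at 0.249 CPM per kb. *Fos* and *Egr1*, the members best known as acute markers of stimulation, thus lay above only 7.89% and 2.85% of tested coding genes. *Fosb* was last, at 0.0195 CPM per kb.

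**Figure D1:**
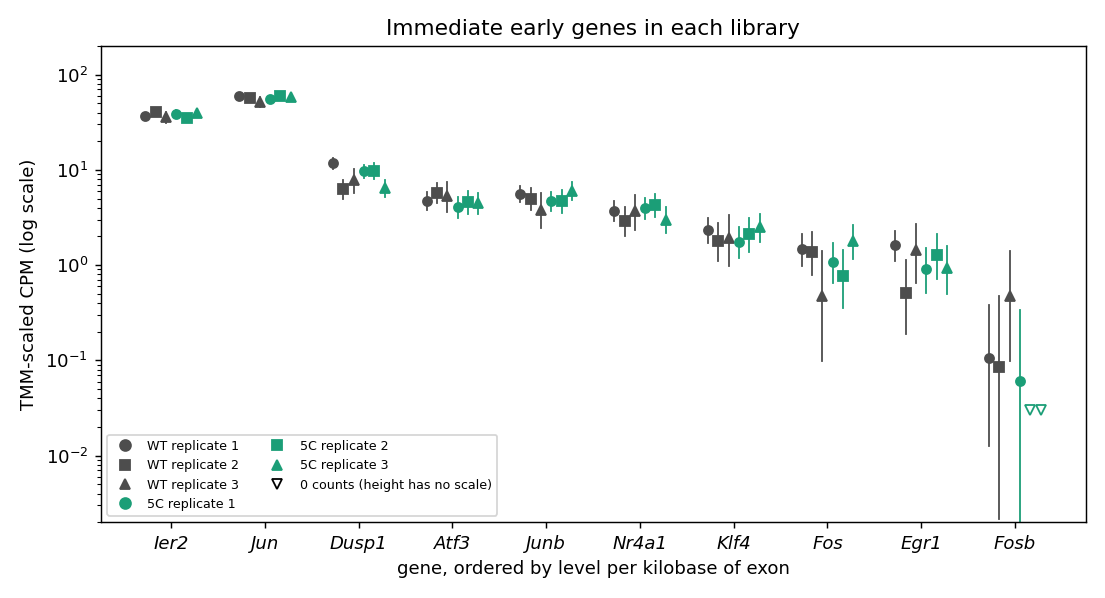
TMM-scaled CPM (log axis) of the 10 members in each of the 6 libraries, WT in grey and 5C in green, with vertical lines for exact 95% Poisson intervals of the counts. *Jun* and *Ier2* sit at 34.8 to 60.3 CPM, *Fos* and *Egr1* at 0.479 to 1.78 CPM, and *Fosb* had 0 counts in 2 libraries of 5C, drawn as open triangles at a height without scale.

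The AP-1 subunits were read first. AP-1 is a dimer of a JUN protein with a FOS, ATF or second JUN protein. *Fos* (ENSMUSG00000021250; chromosome 12, 85473890 to 85477273, plus strand, 4 exons in its longest coding transcript) encodes the classical activating partner. The WT libraries held 1.47, 1.37 and 0.479 CPM, and the 5C libraries 1.09, 0.768 and 1.78 CPM. These values rested on 28, 16 and 3 counts in WT and 18, 9 and 25 counts in 5C. The genotypes overlapped, and the lowest library, WT replicate 3, was the shallowest. Its 3 counts gave an exact 95% Poisson interval of 0.0987 to 1.40 CPM. 5C differed from WT by a log2 fold change of 0.00 (standard error 0.40, 95% interval -0.90 to 0.91), with an unadjusted p of 0.991 from edgeR's quasi-likelihood test. The interval spanned 0.534-fold to 1.88-fold, so changes in either direction within it remain compatible with these counts.

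*Fosb* (ENSMUSG00000003545; chromosome 7, 19302696 to 19310051, minus strand, 4 exons), a FOS relative that is best known from chronic stimulation of neurons, held 2, 1 and 3 counts in WT and 1, 0 and 0 counts in 5C. No library exceeded 3 counts, so the gene was not tested and no fold change is given. Where the count was 0, the floor of 3 counts was worth 0.256 CPM in 5C replicate 2 and 0.214 CPM in 5C replicate 3.

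*Jun* (ENSMUSG00000052684; chromosome 4, 95049034 to 95052222, minus strand), a single-exon gene, encodes the core AP-1 subunit. Its level was 59.1, 56.6 and 51.7 CPM in the WT pools against 55.4, 60.3 and 58.9 CPM in the 5C pools, and the highest library was 1.17 times the lowest. The genotypes overlapped. They differed by 0.06 on the log2 scale (standard error 0.08, 95% interval -0.12 to 0.23), with an unadjusted p of 0.496 from edgeR's quasi-likelihood test. *Junos*, an antisense gene, lies over 7.28% of its exon bases, and 6.13% of its 40-base windows were also found in transcripts of *Junos*. *Junb* (ENSMUSG00000052837; chromosome 8, 84974484 to 84978718, minus strand, a single exon in its longest coding transcript) encodes a weaker activator that competes with JUN. Levels of 5.56, 4.98 and 3.83 CPM in the WT pools stood against 4.67, 4.70 and 5.98 CPM in the 5C pools. The lowest library was again WT replicate 3, and the highest was 5C replicate 3. *Prdx2* lies over 7.52% of its exon bases on the opposite strand. 5C over WT came to 0.07 on the log2 scale (standard error 0.20, 95% interval -0.38 to 0.51).

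*Atf3* (ENSMUSG00000026628; chromosome 1, 191170296 to 191218039, minus strand, 4 exons) encodes a stress-induced partner of the JUN proteins. The WT pools gave 4.72, 5.75 and 5.26 CPM, and the 5C pools 4.06, 4.61 and 4.48 CPM. The means were 5.25 ± 0.516 and 4.39 ± 0.288 CPM (SD, n = 3 each). Every 5C library lay below every WT library, by a narrow margin of 4.61 against 4.72 CPM. Among the 9 tested members it was the only one whose genotypes did not overlap, where 11.4% of all genes tested did not. On the log2 scale 5C was at -0.25 relative to WT (standard error 0.17, 95% interval -0.64 to 0.13). The unadjusted p was 0.166 and became 0.781 after adjustment over all genes by edgeR's quasi-likelihood test. The difference thus did not pass. Its size exceeded the SD of log2 CPM within genotype, 0.12. That SD is a low measure, since the variance of *Atf3* was only 0.519 times that expected from counting alone.

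The remaining transcription factors were also low. *Egr1* (ENSMUSG00000038418; chromosome 18, 34859823 to 34864984, plus strand, 2 exons), a zinc finger factor induced through serum response factor, reached 1.63, 0.515 and 1.44 CPM in the WT pools against 0.909, 1.28 and 0.925 CPM in the 5C pools. These were 31, 6 and 9 counts in WT and 15, 15 and 13 counts in 5C. The 3 libraries of 5C lay within the WT range. The difference was -0.24 on the log2 scale (standard error 0.40, 95% interval -1.15 to 0.67; unadjusted p 0.565 in edgeR's quasi-likelihood test). Without WT replicate 1 it was 0.24, so its sign rested on that library. Without WT replicate 2 and 5C replicate 2, the libraries low in Y-linked transcripts (a choice made after the data were seen), it was -0.76 with an unadjusted p of 0.0626 that became 0.837 after adjustment by edgeR's quasi-likelihood test.

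*Klf4* (ENSMUSG00000003032; chromosome 4, 55527143 to 55532466, minus strand, 5 exons), a zinc finger factor of epithelial and pluripotent cells, gave 2.36, 1.80 and 1.91 CPM in the WT pools against 1.76, 2.13 and 2.49 CPM in the 5C pools. Its genotypes overlapped, and 5C over WT was 0.04 on the log2 scale (95% interval -0.49 to 0.57). *Nr4a1* (ENSMUSG00000023034; chromosome 15, 101254269 to 101274795, plus strand, 8 exons), an orphan nuclear receptor induced by many stimuli, gave 3.73, 2.92 and 3.67 CPM in the WT pools against 3.94, 4.27 and 2.99 CPM in the 5C pools. The 2 highest libraries were both 5C, but 5C replicate 3 lay near the lowest WT library. Its log2 fold change was 0.12 with a 95% interval of -0.36 to 0.59.

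*Ier2* (ENSMUSG00000053560; chromosome 8, 84661331 to 84662852, minus strand), a single-exon gene for a nuclear protein of the early response, gave 36.5, 40.3 and 35.9 CPM in the WT pools against 39.0, 34.8 and 39.8 CPM in the 5C pools. Its highest library was 1.16 times its lowest, the smallest such ratio among the 9 tested members, and the genotypes overlapped. Its log2 fold change, 0.01, had a standard error of 0.09 and a 95% interval of -0.19 to 0.21.

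*Dusp1* (ENSMUSG00000024190; chromosome 17, 26505590 to 26562128, minus strand, 4 exons) encodes the phosphatase that switches off the MAP kinases. The WT pools held 11.8, 6.27 and 7.82 CPM, and the 5C pools 9.70, 9.82 and 6.41 CPM. Both extremes were WT libraries, with WT replicate 1 the highest and WT replicate 2 the lowest. The 5C pools were spread as well, since 5C replicate 3 lay near the lowest WT library. Its variance was 9.43 times that expected from counting alone, against a median of 2.38 over all genes tested. This ratio was the highest among the members, but it also rises with counts, so it does not rank genes of unlike level. The biological coefficient of variation, edgeR's estimate of relative spread beyond counting error, was 22.6% for *Dusp1*, 25.0% for *Fos* and 24.8% for *Egr1*. For *Dusp1* 5C over WT was -0.02 on the log2 scale (standard error 0.25, 95% interval -0.59 to 0.54). Without WT replicate 1 and 5C replicate 3, the libraries richest in yolk sac transcripts (a choice made after the data were seen), it was 0.50, with an unadjusted p of 0.0208 that became 0.939 after adjustment over all genes by edgeR's quasi-likelihood test.

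**Figure D2:**
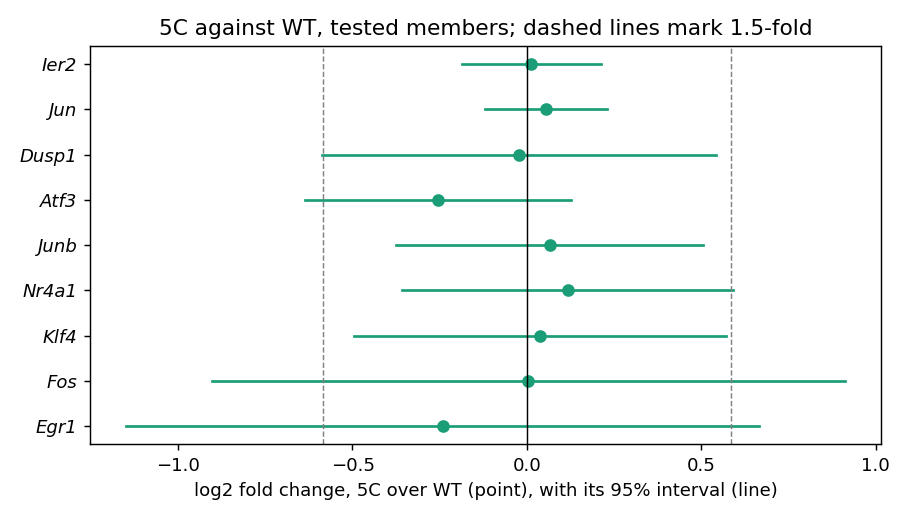
Log2 fold change of 5C over WT (points) with 95% intervals (lines) for the 9 tested members, ordered by level per kilobase; dashed lines mark 1.5-fold. All intervals span 0, and those of *Fos* and *Egr1* are the widest.

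Across the 9 tested members, 6 were higher and 3 lower in 5C. Their median log2 fold change was 0.01, against -0.00 over all 16784 genes tested. At an adjusted p under 0.05 with a change over 1.5-fold, 0 of 9 were called in edgeR's quasi-likelihood test, and 0% of all genes were. At an unadjusted p under 0.05, 0 of 9 passed, against 6.02% of all genes (1011 genes). This background itself moved with single libraries, to 1803 of 17394 genes without WT replicate 2 and 456 of 17396 without 5C replicate 2. DESeq2 also called none of the members at an unadjusted p under 0.05, while it gave 11 differentially expressed genes over the whole table. Unadjusted p-values of the members ran from 0.166 for *Atf3* to 0.991 for *Fos* and *Klf4* in edgeR's quasi-likelihood test. That of *Klf4* depended on the form of the test, and was 0.910 in the newer form of edgeR's quasi-likelihood test. A p that misses the threshold does not show equal levels. The intervals of *Jun*, *Ier2*, *Junb* and *Klf4* lay within 1.5-fold of no change. Those of *Fos*, *Egr1*, *Atf3*, *Dusp1* and *Nr4a1* reached past it. In whole embryos, fewer cells of a type and less RNA per cell cannot be told apart.

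Each library was then read singly. For each member, log2 CPM was compared with its own mean over the 6 libraries. The mean deviation over the 9 members was 0.21 in WT replicate 1, -0.12 in WT replicate 2 and -0.13 in WT replicate 3. In 5C it was -0.04, 0.02 and 0.05. Within a library the SD of the 9 members' deviations ran from 0.155 to 0.375. Some of these means rested on single members: without *Fos*, the member with the widest range, WT replicate 3 was at -0.0224 and 5C replicate 3 at -0.0266, while WT replicate 1 was at 0.18. With offsets on GC content WT replicate 1 was at 0.15 and 5C replicate 3 at 0.11. WT replicate 1 was the highest, with 7 of 9 members above their own mean, against 3 to 5 in the other libraries. It held the highest value of 2 members, where 18.1% of all genes had theirs, and 5C replicate 3 held it for 3, where 19.5% did. WT replicates 2 and 3 held the lowest value of 3 members each, where 15.9% and 19.2% of all genes had theirs. WT replicate 1 was also the library richest in yolk sac transcripts. Its summed heat shock genes (4680 CPM, against 4071 to 4560 CPM elsewhere) and epithelial markers (264 against 123 to 187 CPM) were the highest too. So were its macrophage markers (67.1 against 41.6 to 55.8 CPM) and, narrowly, its endothelial markers (343 against 315 to 342 CPM). The part of any of these in its deviation was not tested.

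**Figure D3:**
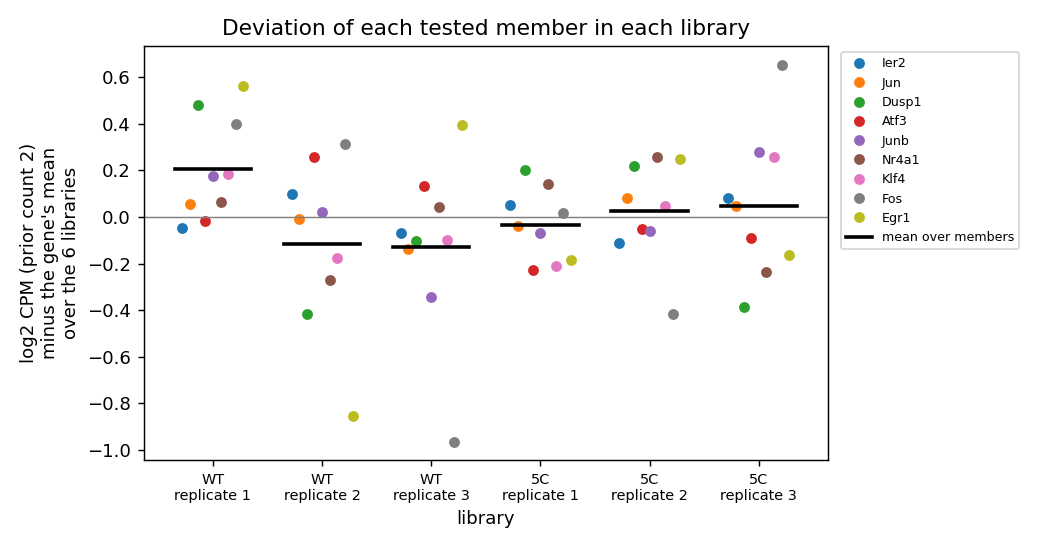
Deviation of each tested member's log2 CPM from its own mean (points, coloured by gene) in each library, with the mean over members as a black bar. The bars lie between -0.13 and 0.21, while *Fos* lies as low as -0.96 in WT replicate 3 and as high as 0.65 in 5C replicate 3.

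The members also differed in how much they varied between libraries of one genotype. The SD of log2 CPM within genotype was 0.08 for *Jun*, 0.10 for *Ier2* and 0.12 for *Atf3*, and 0.57 for *Egr1* and 0.66 for *Fos*. Those of *Fos* and *Egr1* exceeded 97.4% and 96.2% of all genes tested. Their variance was 2.38 and 2.13 times counting error, a ratio that low counts hold down. Their biological coefficients of variation, 25.0% and 24.8%, lay above edgeR's trend for genes of their level, 20.3% and 20.1%. *Atf3* at 0.519 times and *Klf4* at 0.788 times varied less than counting error predicts.

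**Figure D4:**
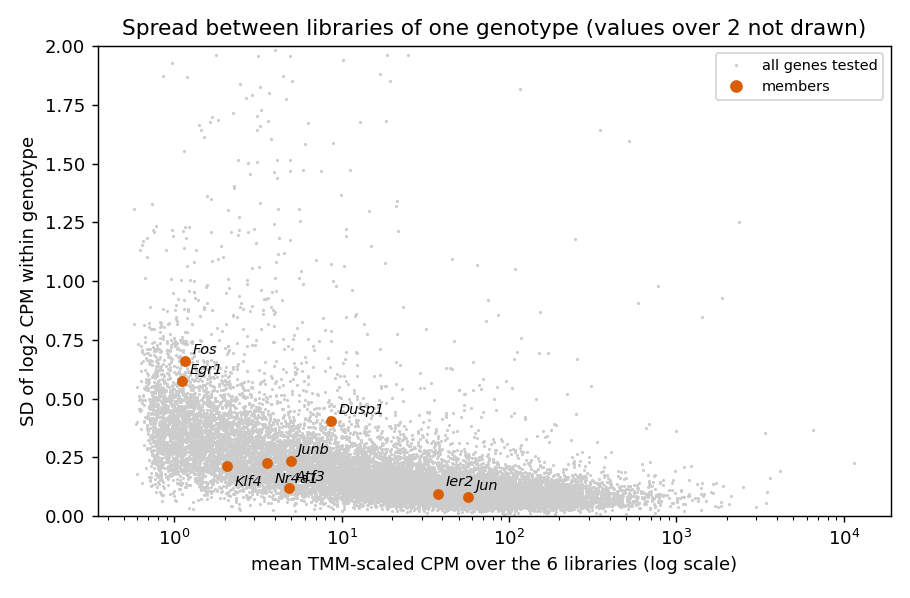
SD of log2 CPM within genotype against mean CPM (log axis) for the 16784 genes tested (grey) and the 9 tested members (orange); SDs over 2 are not drawn. *Dusp1* sits high among genes of its level, while *Fos* and *Egr1* lie in the low-level region where spread is wide for most genes.

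The wider immediate early response was read from lists of related genes. Of the other AP-1 subunits, 9 of 10 were tested, 4 higher and 5 lower in 5C (median -0.02 on the log2 scale). *Jund*, the most constant JUN protein, was the only one with an unadjusted p under 0.05 (log2 fold change 0.21, p 0.0296). *Atf2*, a stress-kinase target, and *Fosl2*, a FOS relative, had values of 0.16 and -0.34. Of other immediate early transcription factors, 14 of 18 were tested, 9 higher and 5 lower, with a median of 0.05. *Egr2*, *Egr3*, *Egr4* and *Npas4* were too low to test, with 25, 53, 5 and 10 counts over all libraries. *Ier5l*, a relative of *Ier2*, passed an unadjusted p of 0.05 (0.27, p 0.0433), while the nuclear receptor *Nr4a2* (0.36, p 0.0504) and *Cebpb* (-0.58, p 0.137) did not.

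Of other immediate early effectors, all 33 were tested, 20 higher and 13 lower in 5C (median 0.08 on the log2 scale). *Rhob*, a small GTPase, gave 74.0, 67.4 and 66.5 CPM in the WT pools against 78.2, 84.9 and 81.2 CPM in the 5C pools (log2 fold change 0.23, unadjusted p 0.0115). *Dusp6*, a phosphatase of ERK, gave 148, 129 and 148 CPM in the WT pools against 169, 160 and 157 CPM in the 5C pools (0.20, unadjusted p 0.0242). Both lay higher in every 5C library than in any WT library. Of the 33 effectors 3 did not overlap between genotypes, where 11.4% of all genes tested did not. *Btg1*, an antiproliferative factor, had a log2 fold change of 0.26 (unadjusted p 0.062 in edgeR's quasi-likelihood test). Neither *Rhob* nor *Dusp6* passed adjustment over all genes in edgeR's quasi-likelihood test (adjusted p 0.781 each). Of the upstream kinases and factors, all 20 were tested and 4 were higher and 16 lower, with a median of -0.04. *Mapk8*, which encodes the JUN kinase JNK1, had a log2 fold change of 0.14 (unadjusted p 0.0481), and *Mapk14* and *Mrtfb* had -0.15 and -0.17.

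Heat shock genes, which respond to warming and protein damage, were read next. Of 14, 13 were tested, 3 higher and 10 lower in 5C, with a median of -0.10, and none passed an unadjusted p of 0.05. *Hspb8*, *Dnajb1* and *Hspe1* had the smallest p-values, with log2 fold changes of -0.28, -0.16 and -0.15. The summed level of the 14 was 4197 to 4680 CPM in WT, highest in WT replicate 1, and 4071 to 4560 CPM in 5C. Across all 5 lists 5 genes reached an unadjusted p under 0.05, all higher in 5C, and none reached an adjusted p under 0.05. In either direction these were 5 of 89 list entries tested (5.62%), against 6.02% of all genes. By direction, 5 entries were higher in 5C and 0 lower, against 428 higher and 583 lower of all 16784 genes tested. The share higher in 5C was thus larger in the lists than over all genes, on 5 genes, and this was not tested.

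**Figure D5:**
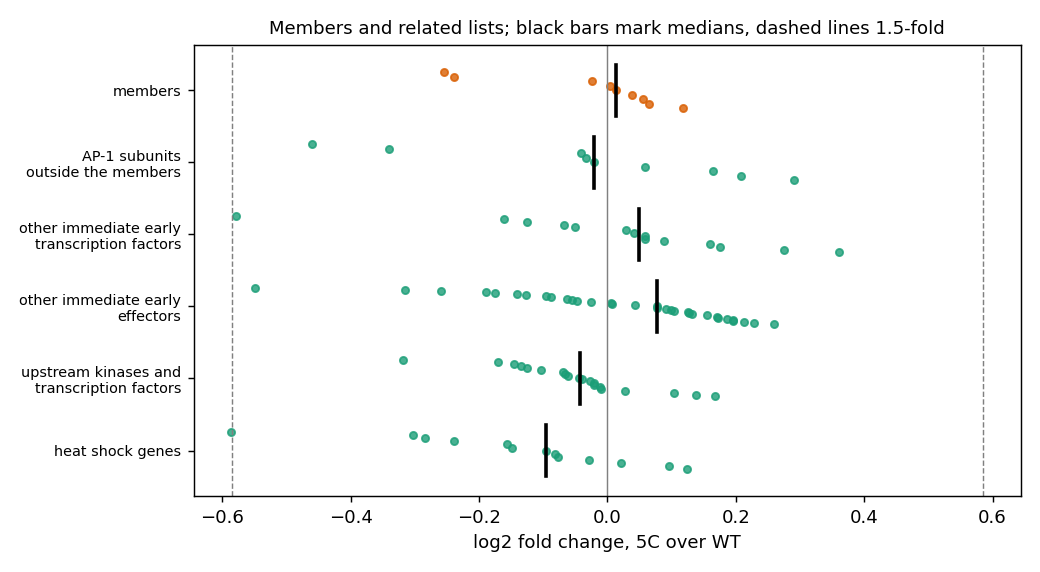
Log2 fold change of 5C over WT for the 9 tested members (orange) and the tested genes of 5 related lists (green), with each list's median as a black bar and dashed lines at 1.5-fold. Medians lie between -0.10 and 0.08, and the lowest heat shock gene touches the lower dashed line.

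Genes whose pattern over the 6 libraries was most like the members' mean were named among 4998 genes of sufficient level and spread. They were *Mboat1* (Pearson r 0.988), *Galns* (0.987), *Meltf* (0.987), *Gm44270* (0.986) and *Impdh1* (0.979). These genes were picked as the most alike of 4998, over 6 libraries that differ in depth and composition. The values are descriptions, and no p is given. All 5 were highest in WT replicate 1. *Galns*, a lysosomal sulfatase, went from 6.70 CPM in WT replicate 3 to 10.49 CPM in WT replicate 1, and *Meltf*, an iron-binding surface protein, from 0 to 4.72 CPM in the same libraries.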

How the data were processed

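The authors isolated RNA from whole embryos, made stranded poly(A) libraries, aligned the reads with STAR to GRCm38 and deposited raw counts per Ensembl gene, without normalization or filtering. The strand setting is not given in the sources used here. Of 55401 identifiers, 55141 were found in a GENCODE annotation of GRCm38. Counts were tested with edgeR 4.0.16 in R 4.3.3 (filterByExpr, TMM, genotype only, legacy quasi-likelihood F-test, two-sided, Benjamini-Hochberg over all 16784 genes). A differentially expressed gene had an adjusted p under 0.05 and a change over 1.5-fold. DESeq2 1.42.0, other scalings, filters, GC-content offsets, a replicate block and left-out libraries were alternatives. Log2 CPM used a prior count of 2. Titles gave genotype and replicate number; replicates are separate pools. Levels per kilobase used union exon length. The members and lists were chosen with earlier results of these data known, and so were the tests. Genes named were the 10 members, *Mir483*, the 3 of each list with the smallest p and the 5 most alike; *Egr2*, *Egr3*, *Egr4*, *Npas4*, *Junos*, *Prdx2* and the markers were named after their values were seen. The code was tested on simulated counts.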

Additional observations from a re-analysis of the deposited data

How the results depend on the processing

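The members were followed under 151 combinations of member and alternative. Of these, 124 kept the sign of the log2 fold change and 27 changed it, and in none did a member pass the adjusted threshold (lowest adjusted p 0.543 in edgeR's quasi-likelihood test). The cause of the sign changes was not tested, and the values concerned were mostly near 0. The log2 fold change of *Fos* was -0.000704 with relative log expression scaling and -0.0114 with the newer quasi-likelihood form. With the replicate block it was -0.0225, and that of *Dusp1* was 0.0196. *Dusp1* was 0.0313 with GC-content offsets and 0.0713 with these offsets and the replicate block. Deviations of same-numbered libraries correlated at -0.174, 0.202 and -0.166 for replicates 1, 2 and 3. With 3 libraries per genotype these values cannot settle whether replicate numbers pair the libraries. Both replicate 2 libraries, the pair at 0.202, were low in Y-linked transcripts. The replicate block left the count of differentially expressed genes at 0. It lowered the genes at an unadjusted p under 0.05 in edgeR's quasi-likelihood test from 1011 to 782.

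Leaving out 1 library at a time gave a range of -0.36 to 0.25 for *Fos*, -0.000187 to 0.0999 for *Jun*, -0.0619 to 0.186 for *Junb*, -0.60 to 0.24 for *Egr1*, -0.0233 to 0.0674 for *Ier2*, -0.22 to 0.32 for *Dusp1* and -0.0968 to 0.197 for *Klf4*. The sign held throughout for *Atf3*, at -0.34 to -0.17, and for *Nr4a1*, at 0.00932 to 0.25. Without WT replicate 1 and 5C replicate 3, chosen after the data were seen, *Fos* was -0.13, *Egr1* 0.32, *Ier2* -0.0482 and *Dusp1* 0.50. Without WT replicate 2 and 5C replicate 2, also chosen then, *Klf4* was -0.0531 and *Nr4a1* -0.0930, and without a change of sign *Egr1* was -0.76, *Fos* 0.32 and *Dusp1* -0.32. The median over the members ranged from -0.0619 to 0.197 over single libraries left out. The count of differentially expressed genes over the whole table was 319 without a count filter, 11 with DESeq2, 2 without WT replicate 1 and 5C replicate 3, and 0 to 1 with 1 library left out, reaching 1 without 5C replicate 2 and without 5C replicate 3. Depth limits *Fos*, *Egr1* and *Fosb* most.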
